A study of Mus musculus with 12 samples.

Results

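The 9 genes described here make, load, take up or break down the inhibitory transmitter GABA, or encode its slow receptor and its chloride and scaffold partners, and they were followed in the prefrontal cortex of cocaine-treated mice. They were *Gad1*, *Gad2*, *Slc32a1*, *Slc6a11*, *Abat*, *Gabbr1*, *Gabbr2*, *Slc12a5* and *Gphn*, chosen by name, and all 9 were found among the 40508 gene names in the deposited tables. Male C57BL/6 mice (C57BL/6J in the methods of the study) aged 10 weeks received saline (the control groups) or cocaine at 20 mg/kg intraperitoneally on each of 14 days. The brains were taken 2 h, 24 h or 7 d after the final dose. The animals carried no transgene, and the tissue was the bilateral prefrontal cortex, comprising frontal association, prelimbic and orbital cortex. The 6 groups gave 12 polyA RNA libraries, so each group had 2, with tissue of 5 mice pooled in each. The tables hold 1 value per gene and group, the FPKM (fragments counted on a gene, divided by its transcript length and by the mapped total) that the authors pooled over both libraries. No spread between libraries or mice was therefore available, no difference below was tested, and the depth behind each value is unknown from the tables.

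GABA is made from glutamate by the glutamate decarboxylases and loaded into synaptic vesicles by a transporter in inhibitory neurons. After release it opens the fast, chloride-conducting GABA-A receptors and activates GABA-B receptors, which act through G proteins, and it is then removed by transporters in neurons and astrocytes and broken down in mitochondria. In the prefrontal cortex these steps belong to local interneurons, their target cells and the surrounding glia.

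Across the 3 time points the genes of GABA synthesis, vesicular loading, GABA-B receptors, chloride extrusion and gephyrin scaffolding differed little between cocaine and saline, and 26 of the 27 ratios lay within 1.2-fold. At 2 h 0 of the 9 genes were past that limit upward and 0 downward, beside 10.6% and 7.26% of 13466 named loci with a mean FPKM of at least 1 (17.8% in either direction). At 24 h the counts were again 0 and 0, beside 6.27% and 5.72% of 13929 loci (12% in either direction), and at 7 d they were 1 and 0, beside 8.3% and 11.9% of 13562 (20.2% in either direction). The exception was *Slc6a11*, the GABA transporter GAT-3, whose pooled FPKM was 1.25-fold higher in cocaine than in saline at 7 d. Its 7 d saline pool was the lowest of the 6, and its cocaine pools were close to each other at all times. *Abat*, the enzyme that breaks GABA down, stayed within the limit, with ratios of the same sign as those of *Slc6a11*, positive at 2 h, negative at 24 h and positive at 7 d. *Gabbr1* had the same order of signs, with 24 h and 7 d ratios near 0.

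The start regions of the gene that passed the limit and of the GABA-synthesising enzymes are shown so that these genes can be compared at the DNA level. Each covers 250 bases before to 50 bases after the RefSeq start on GRCm38.p6, and capitals mark matches on either strand to any searched motif, namely the cAMP response element TGACGTCA, its shorter part TGACG, the E-box CACGTG, the GC box GGGCGG and the TATA box TATAAA.
Slc6a11, chr6:114130991-114131290, plus strand: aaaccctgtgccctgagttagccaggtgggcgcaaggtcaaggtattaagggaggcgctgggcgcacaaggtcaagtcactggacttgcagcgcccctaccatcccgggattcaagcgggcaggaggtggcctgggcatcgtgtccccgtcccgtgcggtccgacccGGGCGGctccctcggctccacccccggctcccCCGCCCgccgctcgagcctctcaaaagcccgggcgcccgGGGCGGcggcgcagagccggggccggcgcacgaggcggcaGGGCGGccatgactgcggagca
Gad1, chr2:70561879-70562178, plus strand: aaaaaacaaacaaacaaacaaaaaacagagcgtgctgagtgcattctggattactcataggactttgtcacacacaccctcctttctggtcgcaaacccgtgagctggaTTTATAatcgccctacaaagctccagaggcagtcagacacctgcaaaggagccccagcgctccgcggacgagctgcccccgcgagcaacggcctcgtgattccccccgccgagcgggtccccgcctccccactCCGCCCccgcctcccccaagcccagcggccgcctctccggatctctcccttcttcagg
Gad2, chr2:22622077-22622376, plus strand: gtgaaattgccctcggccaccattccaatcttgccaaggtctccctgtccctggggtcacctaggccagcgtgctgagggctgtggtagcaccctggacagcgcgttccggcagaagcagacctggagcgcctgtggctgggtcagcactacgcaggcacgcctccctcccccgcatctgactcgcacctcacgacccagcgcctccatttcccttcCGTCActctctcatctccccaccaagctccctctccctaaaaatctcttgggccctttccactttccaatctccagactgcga
The *Slc6a11* region held 4 GC boxes, which begin at -83, -51, -12 and 29 from the start, and it was 72.3% G or C with 32 CpG dinucleotides. The *Gad1* region was 60.0% G or C and held a TATA box letter match at -141, far from the usual place of such a box, and a GC box at -8. The *Gad2* region was 61.3% G or C, and its capitals are the shorter cAMP element read on the minus strand at -33. RefSeq start regions were matched for 8 of the 9 genes. *Slc12a5* had a second start region, and a gene was counted if either of its regions matched, whereas the shares of all are per region. A GC box was present in 6 of these 8, against 35.7% of all 32851 start regions of the same length, and the full cAMP element in 0 of 8, against 1.79% of all. The shorter cAMP element was in 20.8% of all regions, where it includes every full element, the TATA box in 13.6% and the E-box in 7.15%. Among the 8 genes the shorter element was found only for *Gad2* and the TATA box only for *Gad1*. The E-box was found only for *Slc12a5*, at -36 in its second region. The regions of the 8 genes ranged from 60.0% to 80.3% G or C and from 14 to 46 CpG, where the medians over all regions were 52.7% and 7. These letter matches are a description of the sequence and not evidence of a bound factor.

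FPKM is scaled to transcript length, so levels can be ranked between genes. *Gabbr1* was highest, with a mean of 230 FPKM over the 6 pools, and *Slc12a5* followed with 117. The middle of the order was *Gad1* at 74.4 FPKM, *Gabbr2* at 64.4, *Abat* at 50.2 and *Slc6a11* at 34.8. *Slc32a1* at 22.5 FPKM, *Gad2* at 20.1 and *Gphn* at 17.9 closed it. The pools of neighbours in this order did not overlap, but some came close, with *Gad1* at 69.3 or more and *Gabbr2* at 69.2 or less, *Slc32a1* at 21.4 or more and *Gad2* at 20.8 or less, and *Gad2* at 19.0 or more and *Gphn* at 18.5 or less. Between the lowest and highest pool, which come from tables that the authors normalised separately for each time point, the genes differed by 1.05-fold for *Gabbr1* to 1.30-fold for *Slc6a11*.

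**Figure D1:**
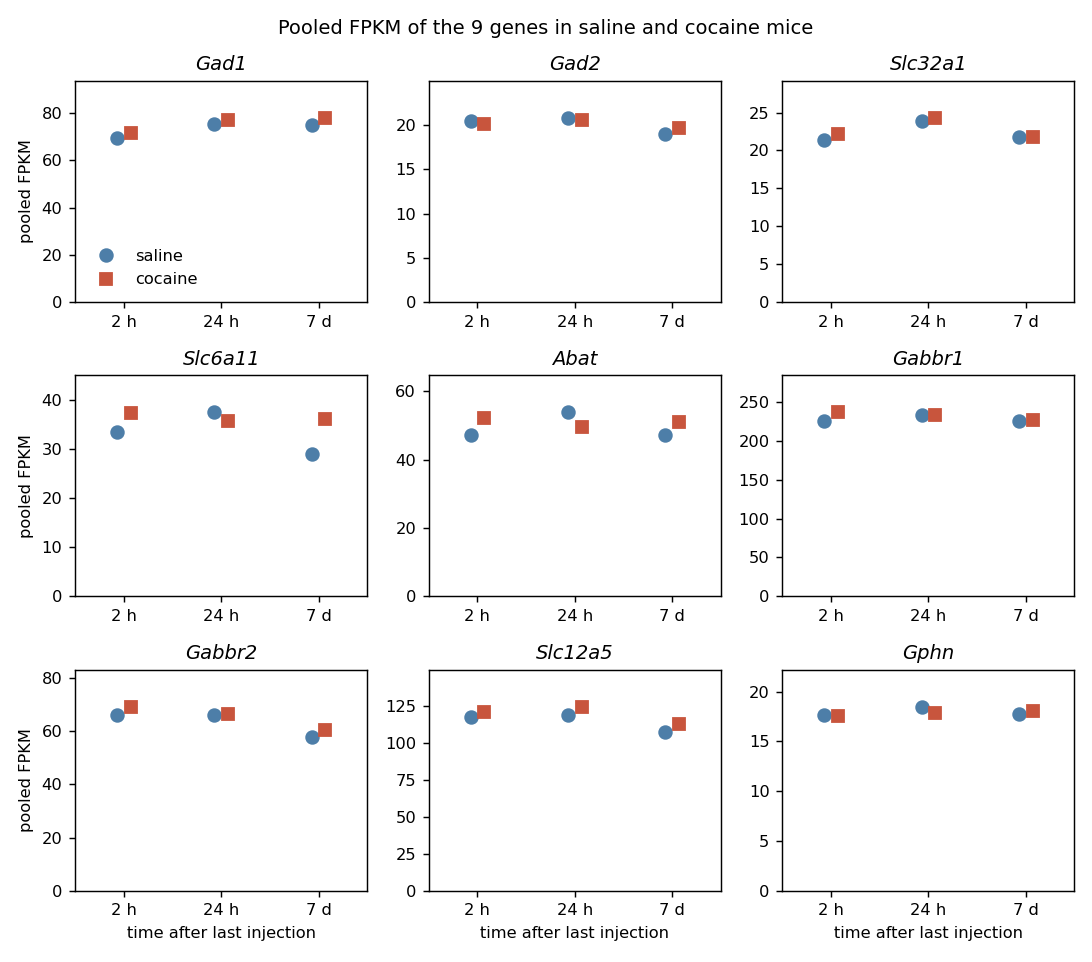
Pooled FPKM (vertical axis, starting at 0) of each of the 9 genes in saline (blue circles) and cocaine (red squares) at 2 h, 24 h and 7 d after the final dose, 1 point per group, with no error bars because the tables give none. Saline and cocaine points nearly coincide for most genes, and the widest gap as a ratio is at 7 d for *Slc6a11*, 28.9 FPKM with saline against 36.1 with cocaine.

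The synthesis step showed small ratios. *Gad1* encodes GAD67, the decarboxylase that supplies most of the basal GABA, and its locus spans chromosome 2, 70489940 to 70602019 on GRCm38. Its pooled FPKM was 69.3 with saline against 71.5 with cocaine at 2 h, 75.4 against 77.0 at 24 h and 75.1 against 78.1 at 7 d. Cocaine was the higher pool at every time, by log2 ratios of 0.04, 0.03 and 0.06 (log2 of cocaine over saline after adding 0.1 FPKM to each), yet the saline pools spanned 69.3 to 75.4 and overlapped the cocaine pools. The locus span in the tables also covers *Erich2* and the antisense gene *Gad1os*, which were at most 0.311 and 0.115 FPKM. The library kit does not mark strand, so reads of *Gad1* and *Gad1os* where they overlap cannot be told apart.

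*Gad2* encodes GAD65, the decarboxylase concentrated at nerve terminals (chromosome 2, 22622205 to 22693874). It measured 20.5 FPKM with saline against 20.1 with cocaine at 2 h, 20.8 against 20.6 at 24 h and 19.0 against 19.7 at 7 d. The log2 ratios were -0.03, -0.01 and 0.06, and with the median of its transcript length group taken out they were -0.09, -0.02 and -0.02, so the sign at 7 d depended on that step. All 6 pools lay within 1.1-fold of each other.

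*Slc32a1* encodes VGAT, which fills synaptic vesicles with GABA and glycine (chromosome 2, 158610767 to 158615748 in the 2 h and 24 h tables). Its values were 21.4 FPKM with saline against 22.1 with cocaine at 2 h, 23.9 against 24.3 at 24 h and 21.8 against 21.7 at 7 d. The ratio was closest to 0 at 7 d, at -0.0011 on the log2 scale (0.02 with the length group median taken out). The locus shared its span with *Gm14205* at each time, and at 7 d it was longer and also took in *Gm14204*. Saline and cocaine pools of *Gad2* and *Slc32a1* overlapped. In bulk tissue, fewer cells of a type and less RNA per cell cannot be told apart, which holds for each of these values.

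Uptake and breakdown gave the ratios farthest from 0. *Slc6a11* encodes GAT-3, which clears GABA into astrocytes, and the locus in the tables, chromosome 6, 114131241 to 114249886, equals the RefSeq gene. Its pooled FPKM was 33.4 with saline against 37.4 with cocaine at 2 h, 37.4 against 35.7 at 24 h and 28.9 against 36.1 at 7 d. The 3 cocaine pools lay between 35.7 and 37.4, whereas the 3 saline pools ran from 28.9 to 37.4, so the ranges overlapped. The log2 ratios were 0.16, -0.07 and 0.32, the last being 25.1% higher in cocaine, and 716 of 13562 named loci had a ratio at or above it. *Slc6a11* was the only one of the 9 genes past the 1.2-fold limit at any time. Past that limit in the same direction at 7 d were 8.3% of named loci. At 7 d short transcripts had lower ratios, with a median of -0.23 in the shortest of 20 length groups, and *Slc6a11*, whose length group had a median of 0.04, was 0.29 above it.

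Because the 7 d saline pool was the lowest of the 6, the other saline pools were set beside it, although they come from separately normalised tables. The 7 d saline pool of *Slc6a11* was lower than the 2 h saline pool by a log2 difference of -0.21 and lower than the 24 h saline pool by -0.37. The 7 d cocaine pool differed from those saline pools by 0.11 and -0.05. The log2 range over the 3 saline pools was 0.37 and over the 3 cocaine pools 0.06, where the medians over all genes were 0.22 and 0.19.

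*Abat* encodes GABA transaminase, the mitochondrial enzyme that converts GABA to succinic semialdehyde (chromosome 16, 8513429 to 8621586). Its pools were 47.3 FPKM with saline against 52.3 with cocaine at 2 h, 53.9 against 49.6 at 24 h and 47.2 against 50.9 at 7 d. The log2 ratios were 0.15, -0.12 and 0.11, and the saline range of 47.2 to 53.9 enclosed all 3 cocaine pools. Here too the cocaine pools were closer together than the saline pools, with log2 ranges of 0.07 and 0.19.

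**Figure D2:**
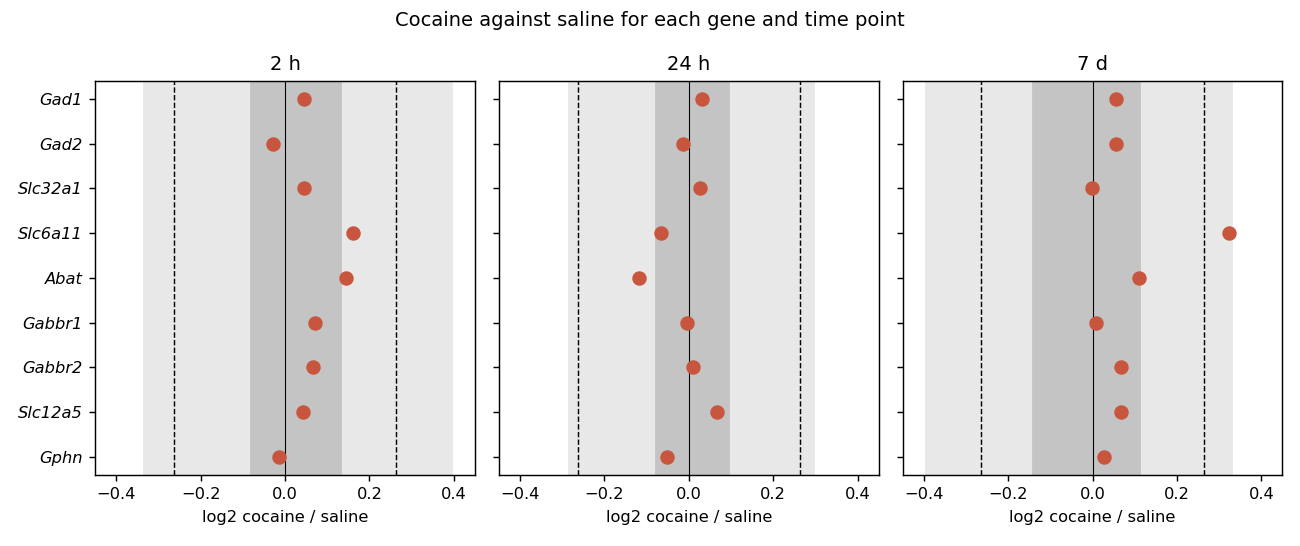
Log2 ratio of cocaine to saline (horizontal axis) for each of the 9 genes at 2 h, 24 h and 7 d, with the 25th to 75th percentile of all named loci in dark grey, the 5th to 95th in light grey, and the 1.2-fold limits dashed. *Slc6a11* at 7 d, at 0.32, is the only point past a dashed line, and *Slc6a11* and *Abat* lie right of the other genes at 2 h.

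Astrocyte markers were read beside these values, because GAT-3 is an astrocyte transporter. At 2 h all 10 markers were above 0, with a median log2 ratio of 0.16 and 1 past the limit. At 24 h 1 of 10 was above 0, the median was -0.16 and 2 were past the limit downward. At 7 d 9 of 10 were above 0, the median was 0.21 and 5 were past the limit upward. Of all named loci 56.5%, 53.1% and 47.8% were above 0 at 2 h, 24 h and 7 d. Past the limit upward were 10.6%, 6.27% and 8.3% of them, and downward 7.26%, 5.72% and 11.9%. The summed marker FPKM was 1209 with saline against 1379 with cocaine at 2 h, 1359 against 1294 at 24 h and 1206 against 1346 at 7 d. The astrocyte median thus had the sign of *Slc6a11* and *Abat* at each time, and its part in their values was not tested.

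Of the single markers at 7 d, *Slc1a2*, the main glutamate transporter of astrocytes, was 219 FPKM with saline against 286 with cocaine, and *Slc4a4*, a bicarbonate cotransporter, was 13.7 and 17.3. *Gjb6*, a gap junction protein, was 28.5 and 39.0 at 2 h, and *Gfap*, the intermediate filament protein of astrocytes, was 41.3 and 32.4 at 24 h. *S100b* went the other way at 7 d, at 115 FPKM with saline against 104 with cocaine.

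**Figure D3:**
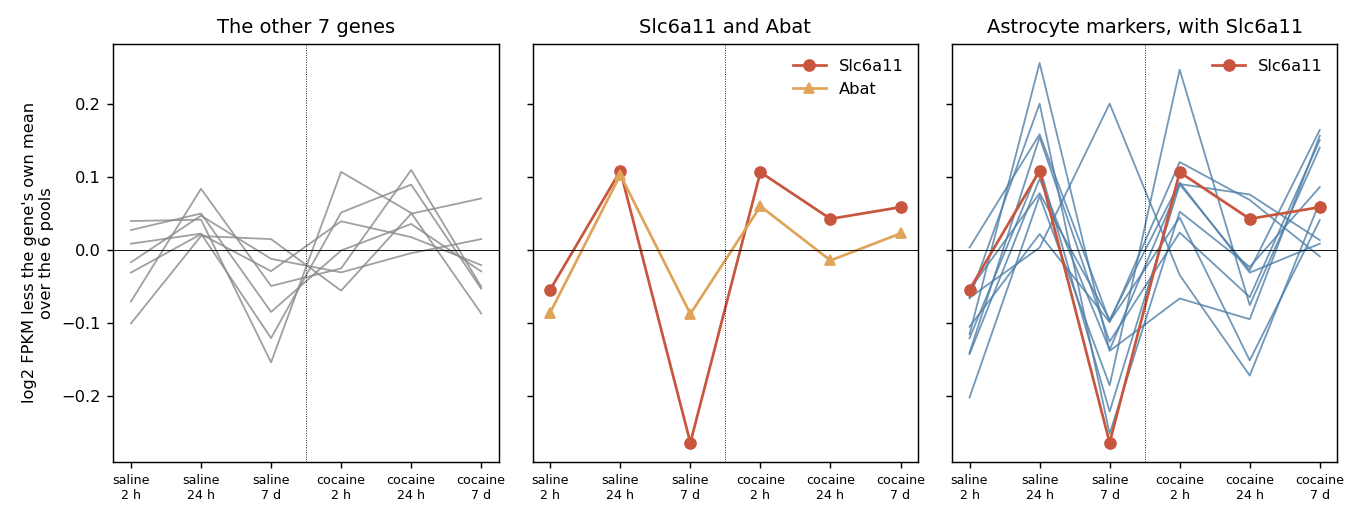
Log2 FPKM less the gene's own mean over the 6 pools (vertical axis) across the saline and cocaine pools at each time, for the other 7 genes (left, grey), *Slc6a11* and *Abat* (middle), and the 10 astrocyte markers with *Slc6a11* (right, blue and red). The grey lines stay nearer to 0 than the lowest point of *Slc6a11*, and *Slc6a11* has its lowest point in the 7 d saline pool, as do several astrocyte markers, while 1 marker, *S100b*, has its highest point there.

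The remaining transporters and enzymes of GABA and glutamine were given by a list of 11 genes, of which 10 had a mean FPKM of at least 1 at 2 h and 24 h and 11 at 7 d, when *Slc6a12* came above it. At 2 h 0 were past the limit upward and 1 downward, at 24 h none in either direction, and at 7 d 3 upward and 0 downward. Of all named loci 7.26% were past it downward at 2 h and 8.3% upward at 7 d. The list medians were 0.07, -0.01 and 0.21 on the log2 scale, beside 0.02, 0.01 and -0.01 over all named loci. The 3 genes past the limit at 7 d were *Slc38a5*, a glutamine transporter, at 1.77 FPKM with saline against 2.86 with cocaine, *Slc6a13*, the transporter GAT-2, at 9.02 and 11.5, and *Slc6a12*, the betaine and GABA transporter, at 0.892 and 1.12. All 3 were low in level, and *Slc38a5* was the gene past the limit downward at 2 h, at -0.29.

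*Aldh5a1*, which oxidises the product of *Abat*, had log2 ratios of 0.08, -0.12 and 0.07, the same order of signs as *Abat*, at 12.4 to 13.1 FPKM in the 2 h pools. *Glul*, the glutamine synthetase of astrocytes, had log2 ratios of 0.21, -0.15 and 0.25, at 602 FPKM with saline against 718 with cocaine at 7 d; it was named after its values were seen.

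The GABA-B receptor is an obligate pair of subunits. *Gabbr1* encodes the subunit that binds GABA (chromosome 17, 37045966 to 37078118 at 2 h and 24 h). It stood at 225 FPKM with saline against 237 with cocaine at 2 h, 234 against 233 at 24 h and 226 against 227 at 7 d. Between its lowest and highest pool *Gabbr1* differed least of the 9 genes, with log2 ratios of 0.07, -0.0041 and 0.01, the last being -0.07 with the length group median taken out. *Gabbr1* was also the only one of the 9 whose largest difference, 0.07, exceeded the log2 range of its own saline pools, 0.05; over all genes 44.4% did so.

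*Gabbr2* encodes the subunit that couples to G proteins (chromosome 4, 46662318 to 46991873). Its pools were 66.1 FPKM with saline against 69.2 with cocaine at 2 h, 66.1 against 66.6 at 24 h and 57.8 against 60.5 at 7 d. Cocaine was the higher pool at each time, by 0.07, 0.01 and 0.07 on the log2 scale, though with the median of its transcript length group taken out the 7 d ratio was -0.01 and the 24 h ratio -0.00038. Both 7 d pools were below all earlier pools. Saline and cocaine ranges overlapped for both subunits.

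Among 14 partners and effectors of the GABA-B receptor, 13 had a mean FPKM of at least 1. Beside 17.8%, 12% and 20.2% of all named loci in either direction, none of these 13 was past the limit at 2 h, 24 h or 7 d. Their medians were 0.05, 0.02 and -0.01. *Kctd12*, an auxiliary subunit that shapes the receptor response, was 12.7 FPKM with saline against 13.6 with cocaine at 2 h, 13.7 against 13.9 at 24 h and 12.6 against 12.2 at 7 d. *Kctd16*, a related subunit, had log2 ratios of -0.11 at 2 h, -3.65e-05 at 24 h and 0.21 at 7 d, from a row that it shares with another gene name.

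*Slc12a5* encodes KCC2, the potassium chloride cotransporter that keeps neuronal chloride low (chromosome 2, 164960802 to 164999727 at 2 h and 24 h). It measured 118 FPKM with saline against 121 with cocaine at 2 h, 119 against 125 at 24 h and 108 against 113 at 7 d. Cocaine was higher at each time by 0.04, 0.07 and 0.07, though with the median of its transcript length group taken out they were -0.01 at 2 h and -0.01 at 7 d. The uncorrected ratios were less than the log2 range of 0.14 over the saline pools, and the ranges overlapped. At 7 d the locus was drawn together with *Ncoa5*, whose own row was 11.4 and 11.9 FPKM.

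The 9 other genes of chloride transport and its kinases had 0 members past the limit at 2 h and 24 h and 1 upward at 7 d. Their medians were 0.04, 0.00037 and 0.13, not corrected for transcript length. Of all named loci 8.3% were past the limit upward at 7 d. The gene past the limit was *Slc12a4*, the widely expressed cotransporter KCC1, at 3.64 FPKM with saline against 4.86 with cocaine. *Slc12a2*, the chloride importer NKCC1, was 5.57 and 4.93 at 2 h, 5.84 against 5.85 at 24 h and 5.16 against 5.95 at 7 d. The ratio of *Slc12a2* thus went from -0.17 through 0.0023 to 0.20, while the uncorrected ratio of *Slc12a5* was above 0 at each time.

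*Gphn* encodes gephyrin, the scaffold that anchors GABA-A and glycine receptors (chromosome 12, 78224754 to 78684767 at 2 h and 24 h). Its pools were 17.7 FPKM with saline against 17.5 with cocaine at 2 h, 18.5 against 17.8 at 24 h and 17.7 against 18.1 at 7 d. The log2 ratios were -0.01, -0.05 and 0.03, and the 6 pools lay within 1.06-fold. At 24 h a second row of the same locus listed 1547 FPKM with saline against 1241 with cocaine, a log2 ratio of -0.32 that is past the limit. It was not used for *Gphn*, because it was placed on the opposite strand. The strand is not given with the values and was inferred from the order of locus numbers.

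The inhibitory scaffold list held 18 genes, of which 16 were found. Of all named loci 10.6% were past the limit upward at 2 h and 11.9% downward at 7 d. From the list there was 1 gene past it upward at 2 h, none at 24 h and 1 downward at 7 d, and the medians were 0.02, -0.0045 and 0.10. *Nlgn3*, a synaptic adhesion protein, was the former, with 12.3 and 16.7 FPKM, from a row shared with *Med12*, and *Dynll1*, a dynein light chain that binds gephyrin, was the latter, with 396 and 302. Neither the counts nor the medians of this list were corrected for the trend with transcript length. *Nlgn2*, the neuroligin of inhibitory synapses, was 46.6 and 48.2 FPKM at 2 h, 46.5 against 50.4 at 24 h and 37.5 against 44.0 at 7 d.

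As a group, the 9 genes were above 0 in 7 cases at 2 h, 4 at 24 h and 8 at 7 d, with medians of 0.05, -0.0041 and 0.06. Of all named loci 56.5%, 53.1% and 47.8% were above 0. These ratios were small, and with the median of each gene's transcript length group taken out 6 of the 9 were above 0 at 2 h, 3 at 24 h and 5 at 7 d. All 9 had a mean FPKM of at least 1 at each time. The 3 saline and the 3 cocaine pools overlapped for all 9 genes, and they did not overlap for 7.87% of 12329 genes. The 9 genes are well expressed. At a mean FPKM of at least 5, 7.35% of loci were past the limit upward and 3.42% downward at 2 h. These shares were 3.96% and 2.54% at 24 h, and 4.68% and 11.1% at 7 d. With a limit of 1.1-fold 2 of the 9 genes, *Slc6a11* and *Abat*, were past it at 2 h, where 24.5% of named loci were higher by that much, and with 1.5-fold none was at 7 d, where 1.53% were.

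**Figure D4:**
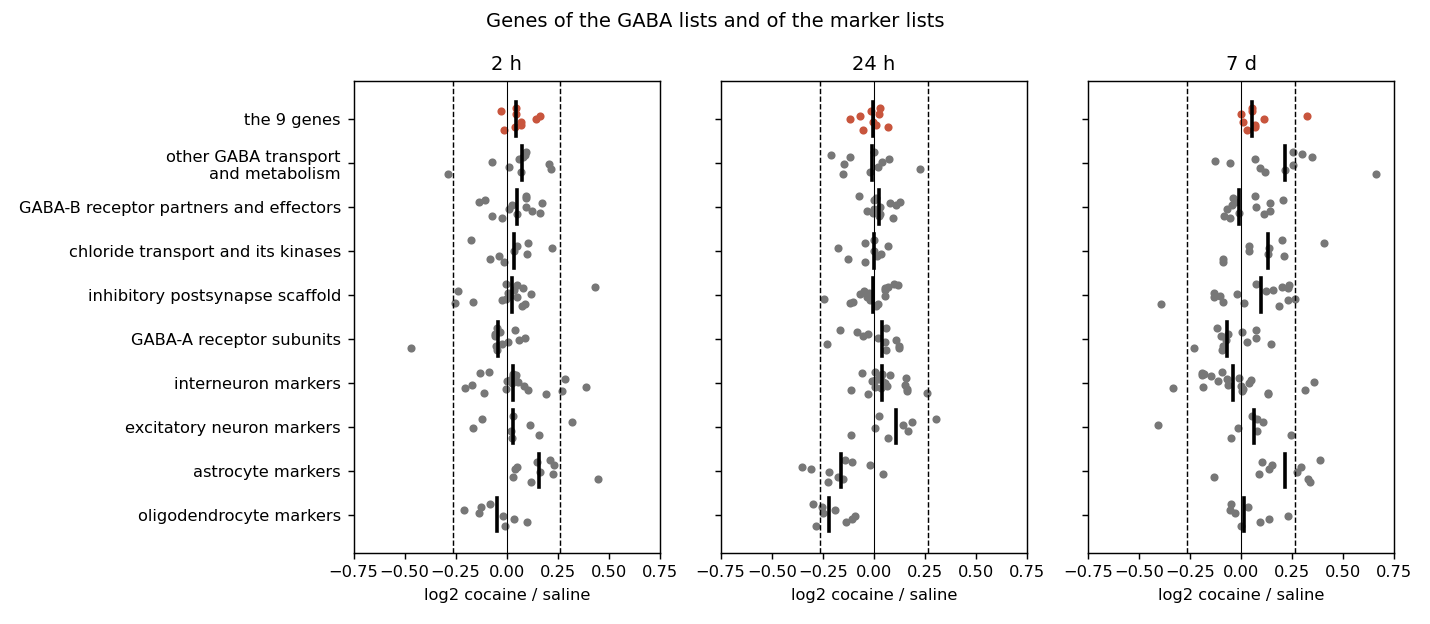
Log2 ratio of cocaine to saline (horizontal axis) at 2 h, 24 h and 7 d for the 9 genes (red) and the genes of each list (grey) with a mean FPKM of at least 1, each dot a gene, the black bar the list's median, and dashed lines the 1.2-fold limits. The medians of astrocyte markers are 0.16, -0.16 and 0.21 and that of the other GABA transport and metabolism genes is 0.21 at 7 d, while the 9 genes have medians of 0.05, -0.0041 and 0.06.

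GABA-A receptor subunits, the fast receptors of the same transmitter, had 12 of 19 genes past the expression filter. At 2 h 1 was past the limit downward, *Gabrg3*, at 4.11 FPKM with saline against 2.94 with cocaine, and at 24 h and 7 d none was. Interneuron markers, of which 20 were measured, had medians of 0.03, 0.04 and -0.04, with 3 past the limit upward at 2 h, none at 24 h, and 2 upward and 1 downward at 7 d. Of all named loci 10.6% were past the limit upward and 7.26% downward at 2 h, and 8.3% and 11.9% at 7 d. The summed FPKM of the interneuron markers was 1708 with saline against 1714 with cocaine at 2 h, 1751 against 1782 at 24 h and 1748 against 1583 at 7 d. In the 7 d sums *Cck* alone was 801 FPKM with saline against 722 with cocaine. Neither the sums nor the medians were corrected for the trend with transcript length. The shortest of 20 length groups had a median log2 ratio of -0.23 at 7 d, and the part of this trend in the sums was not tested. At 7 d 8 of the 20 markers were above 0, beside 47.8% of all named loci. *Dlx5*, a forebrain interneuron factor, was 1.46 and 1.94 FPKM at 2 h, and at 7 d *Htr3a*, a serotonin receptor of one interneuron class, was 3.30 and 4.25, *Maf* was 4.81 and 5.99 and *Dlx6* was 2.93 and 2.31.

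The tissue label was checked against its markers. Of all named loci 10.6%, 6.27% and 8.3% were past the limit upward at 2 h, 24 h and 7 d, and 7.26%, 5.72% and 11.9% downward. Excitatory neuron markers were abundant, with a summed FPKM of 3098 to 3416, and 1 gene was past the limit upward at 2 h (*Neurod2*, 20.6 and 25.8 FPKM), 1 upward at 24 h (*Slc17a6*, 2.07 and 2.57) and 1 downward at 7 d (*Neurod6*, 37.2 and 28.1). Markers of neighbouring regions were low where they are defining, with *Drd2* at 0.146 to 0.234 FPKM and *Drd1a* at 0.648 to 0.925, and the summed striatal markers ranged from 140 to 164 FPKM. Striatal genes past the limit included *Pde10a* upward and *Rgs9* downward at 2 h, with log2 ratios of 0.43 and -0.42, and *Adora2a* upward and *Tac1* downward at 7 d, with 0.68 and -0.62. The olfactory bulb list had *Dcx* past it at 2 h, at -0.31. Of 6 choroid plexus markers only *Ttr* had a mean FPKM of at least 1, and it was lower with cocaine at 2 h (1.90 and 0.461 FPKM) and 24 h (a log2 ratio of -0.66) and higher at 7 d (0.284 and 6.54). The other 5 were under 1 FPKM in every pool and did not share one direction at 7 d, with *Folr1* at 0.668 and 0.290 and *Kl* at 0.376 and 0.531. Oligodendrocyte markers had a median of -0.22 at 24 h with 2 of 8 past the limit downward, *Mbp* at 482 and 392 FPKM and *Ermn* at 4.16 and 3.40. The part of these markers in the values of the 9 genes was not tested.

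The genes whose pools ran most like a given member were ranked among 7628 genes by the root mean square difference of log2 FPKM over the 6 pools, after taking out each gene's mean. For *Slc6a11* they were *Man2a2*, *Gm10010* and *Mast2*, with differences of 0.0206, 0.0217 and 0.0227. *Man2a2* showed the same low 7 d saline pool, at 15.9 FPKM, where the other 5 pools were at 17.7 or more. Of the astrocyte markers ranked for *Slc6a11*, *Slc4a4* was nearest, at rank 109, while *Gfap* was at 2572 and *S100b* farthest at 6157. For *Abat* the nearest marker was *Slc1a3*, an astrocyte glutamate transporter, at rank 6, while *Gfap* was at 3247 and *S100b* farthest at 5411. *Abat* itself was nearest to *Ankrd40*, *Aldh6a1* and *Cyfip1*, at 0.0146, 0.0163 and 0.0204.

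For the genes of synthesis, the nearest were *Cacfd1* for *Gad1* at 0.0188, *Riok3* for *Gad2* at 0.00857 and *Ctxn1* for *Slc32a1* at 0.0178. For the receptor subunits they were *Dctn4* for *Gabbr1* at 0.00999 and *Cdh2* for *Gabbr2* at 0.00678, and for the last pair *Pcid2* for *Slc12a5* at 0.00851 and *Tspyl1* for *Gphn* at 0.0148. No member was among the 3 nearest genes of another. The closest members were *Gphn* and *Gabbr1* at 0.0360 and *Gabbr2* and *Slc12a5* at 0.0369. The 6 points of each comparison share their pools and normalisation, so these distances are a description.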

How the data were processed

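PolyA RNA of the prefrontal cortex was sequenced in 12 libraries of 6 groups. According to the submitters' processing notes, reads were handled with CASAVA 1.8.2, Trimmomatic 0.32, TopHat2 2.0.12 and Cufflinks 2.2.1 with Cuffdiff, on GRCm38, and the methods of the study name mm9 and another trimmer; the loci fit GRCm38 coordinates. Per the deposited tables, 1 for each time point and normalised separately, the authors give for each locus 1 pooled FPKM for each group. The log2 fold change, test statistic, p-value, q-value and call of the authors' own comparison stand beside it and were not used. The header codes of the columns are ambiguous beside the sample labels: the first FPKM column was taken as saline, since supplementary column heads of the study matched that order within 2% for 375 of 447, 12 of 13 and 478 of 509 genes, and the reverse order for 0.

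The 9 genes and the lists were chosen with earlier results of these data known. Ratios were log2((cocaine + 0.1)/(saline + 0.1)). Loci with a mean FPKM of at least 1 were compared with a limit of 1.2-fold, which is no test. *Glul*, *Slc1a3*, *S100b*, *Cck*, *Drd1a* and *Drd2* were named after their values were seen. Where a gene had several rows, the longest locus was taken, and for rows of 1 locus the row on the annotated strand, a choice made after such rows had been seen. Strand was inferred from the order of locus numbers along a chromosome. On chromosome 12 at 24 h this gave the annotated strand for 97.3% of 450 single-gene loci. Genes named from each list were those past the limit, at most 4 a list, plus *Slc12a2*, *Aldh5a1*, *Kctd12*, *Kctd16* and *Nlgn2* whatever their values, and the 3 genes most like each member. Some genes under this rule are not reported here. Gene positions are 1-based. Steps were tested on simulated data. Python 3.11.15, pandas 2.3.3, numpy 2.4.6, scipy 1.17.1 and matplotlib 3.10.9 were used. Alternatives varied the added FPKM, the expression filter, the fold limit, the row of a gene, the length trend and the saline pool.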

Additional observations from a re-analysis of the deposited data

How the results depend on the processing

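Over 11 alternatives, 273 of 279 recomputed member ratios kept their side of the limit, 2 went inside it and 4 went past it. The sign changed in 13 of them, for 8 pairs of gene and time whose ratios were at most 0.07 in size, and in 14 of 327 list medians, all of which moved by no more than 1 SD of the list's own ratios. The 2 h count of members past the limit was 2 at a limit of 1.1-fold (*Slc6a11* and *Abat*). The 24 h count was 1 when the row with the highest mean FPKM was taken, or when ties of locus went to the higher FPKM. The row of *Gphn* that was inferred to lie on the opposite strand, at -0.32, was then used. The 7 d count was 0 at a limit of 1.5-fold, and 0 with the 7 d saline value replaced by the mean of 2 h and 24 h saline, a setting chosen after seeing that this pool of *Slc6a11* was low, so that a smaller ratio was fixed by the choice and nothing is drawn from it. The 7 d ratio of *Slc6a11* ranged from 0.03, under that replacement, to 0.33. No paired analysis was possible because each deposited value is pooled over both libraries of a group, and for the same reason no replicate could be left out. Depth is unknown from the tables, so no counting error can be given.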
